A study of Mus musculus with 15 samples.

Results

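The cardiac potassium channel genes described here are 10 genes chosen by name, the main pore and accessory subunits of the currents that end the cardiac action potential and hold the resting potential. Each of the 10 was represented by 1 probe set with a single gene symbol, out of 19937 genes named in this way, and 9 of the 10 were among the 9969 genes with enough signal to be tested. The 15 arrays measured RNA of cardiomyocytes that had been isolated from the left ventricle of C57Bl/6NT males, 8 to 9 months old. The animals were exposed whole-body to a 0.15 Gy dose of iron-ion radiation (1 GeV per nucleon, energy deposited at about 151 keV per µm of track), or were handled as sham controls. Iron-exposed cells were taken on day 1 (3 arrays), day 3 (3 arrays), day 7 (2 arrays), day 14 (2 arrays) and day 28 (2 arrays). The 3 sham arrays comprised 2 of day 1 and 1 of day 3. The labels name no transgene or deletion in any group, and do not say whether arrays of a group came from separate animals. Every p-value is thus measured against array-to-array spread that may be technical. Sham cells of later days were not analysed here, so time and exposure cannot be told apart in the comparisons of days 7, 14 and 28 with sham. The same holds where these days are compared with earlier iron days.

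Potassium channels carry the outward current that returns a cardiomyocyte to rest after each beat. Transient outward channels open and close early in the action potential, delayed rectifiers open later, and inward rectifiers set the resting potential. In the adult mouse ventricle the transient outward and fast delayed currents do most of this work, whereas the rapid and slow delayed rectifiers encoded by Kcnh2 and Kcnq1 weigh more in larger mammals, including humans, where their loss prolongs the QT interval. Transcripts of several of these genes are known to cycle with the circadian clock in rodent heart.

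Levels are given as normalized signal on the log2 scale. They are compared between arrays for the same gene and never between genes, because each probe set has its own response. Differences are in log2 units with the standard error (SE) of the limma fit. A gene was called changed when its p-value, adjusted by the Benjamini-Hochberg method over all 9969 genes tested, was under 0.05. The few arrays per group limit the precision. In bulk cells, fewer cells of a type and less RNA per cell cannot be told apart.

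Kcnh2, Kcnq1, Kcnj3 and Kcnj5 were lower on late iron days (7, 14 and 28) than on early ones (1 and 3), as blocks. With days 14 and 28 alone as the late block, a setting chosen after seeing the data, Kcnh2 and Kcnq1 still passed. Kcnj5 (-0.34) and Kcnj3 (-0.19) then did not. Kcnj2 rose against sham on days 3 and 28 and was lower on day 7 than on day 3. Each of these Kcnj2 calls was lost when certain single arrays were left out. Both rises also missed the threshold with each array centred on its median. The transient outward genes Kcnd2, Kcnd3 and Kcnip2 passed none of these comparisons.

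RefSeq promoter sequences (build GRCm38.p6) were matched by symbol for 8 of the 10 genes. Kcnq1 and Kcnj11 were not matched. Shown are the 250 bases before the annotated start for 3 genes on which the results turn: Kcnj2, which rose, Kcnh2, the gene with the strongest late fall, and Kcnj5, which fell with it. Capitals mark the E-box CACGTG, to which the clock activators bind, and the GC box GGGCGG, a site of Sp1-type factors, each searched on both strands.
Kcnj2, chr11:111065914-111066163, plus strand: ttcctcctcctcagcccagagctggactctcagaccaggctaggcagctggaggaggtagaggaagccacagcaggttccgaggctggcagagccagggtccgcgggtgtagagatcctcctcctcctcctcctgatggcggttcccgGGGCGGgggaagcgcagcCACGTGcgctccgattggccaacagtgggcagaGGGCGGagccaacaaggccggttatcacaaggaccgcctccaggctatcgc
Kcnh2, chr5:24329592-24329841, minus strand: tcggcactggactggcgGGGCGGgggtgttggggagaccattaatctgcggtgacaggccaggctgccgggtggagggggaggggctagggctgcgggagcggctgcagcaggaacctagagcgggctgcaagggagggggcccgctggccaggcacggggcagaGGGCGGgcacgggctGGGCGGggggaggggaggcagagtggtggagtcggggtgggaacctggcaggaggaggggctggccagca
Kcnj5, chr9:32344345-32344594, minus strand: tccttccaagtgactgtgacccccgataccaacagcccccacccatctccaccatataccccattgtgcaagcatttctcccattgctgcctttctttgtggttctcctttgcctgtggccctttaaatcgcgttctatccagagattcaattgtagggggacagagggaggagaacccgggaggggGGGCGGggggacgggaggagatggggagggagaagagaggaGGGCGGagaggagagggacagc

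The Kcnj2 window held 1 E-box, which began 84 bases before the start, and it was the only one of the 8 windows with that motif. Of 32851 promoter windows of this length in the table, 6.02% held it. GC boxes were in 5 of the 8 windows (Kcnj2, Kcnh2, Kcnj5, Kcnd2 and Kcnip2), against 32.7% of all windows, and the Kcnh2 window held 3 of them. G and C made up 53.2% (Kcna5) to 73.6% (Kcnh2) of the bases in the 8 windows, beside a median of 52.4% over all windows. The part of this base content in the GC box share was not tested. The windows of Kcnh2, Kcnj3 and Kcnip2 lie within the annotated spans of their genes, before an internal start. The Kcnj5 window lies partly within the span of its gene. The letters TTANNTAA, which take in one form of the D-box bound by clock output factors, were in 0 of the 8 windows and in 5.43% of all. TATAAA (12.4% of all windows) and TGACGTCA (1.55%), both searched on both strands, were also in 0 of the 8. Motifs did not overlap one another in the printed windows. A match in such a window is a description and not a bound site, and these arrays did not measure binding.

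Of the delayed rectifiers, Kcnh2 encodes the pore of the rapid component. Its signal was 8.77, 8.59 and 8.81 on iron day 1, 8.32, 8.81 and 8.73 on iron day 3, 7.42 and 8.05 on iron day 7, 8.07 and 8.31 on iron day 14, 7.93 and 7.99 on iron day 28, and 8.48, 8.63 and 8.29 in sham. All 6 late iron arrays lay below all 6 early iron arrays, which held for 2.57% of all genes tested. The day 7 and day 28 arrays also lay below every sham array, as in 22.5% and 19.4% of all genes on those days. Late iron days were 0.71 lower than early iron days (SE 0.114, 0.611-fold, adjusted p = 0.00142, limma). Day 7 alone was 0.89 below day 3 (SE 0.181, adjusted p = 0.00742) and 0.73 below sham (SE 0.181, adjusted p = 0.0382). On day 28 the difference from sham was -0.51 (SE 0.181, adjusted p = 0.160), which did not pass.

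Kcnq1 encodes the pore of the slow component. It stood at 7.89, 7.84 and 7.97 on iron day 1, 7.76, 8.06 and 7.83 on iron day 3, 6.98 and 7.41 on iron day 7, 7.32 and 7.51 on iron day 14, 7.57 and 7.56 on iron day 28, and 7.73, 7.85 and 7.55 in sham. Here too no late iron array reached an early one, as in 2.57% of all genes tested. The late days were 0.50 lower than the early days (SE 0.0858, 0.706-fold, adjusted p = 0.00200), day 7 was 0.69 below day 3 (SE 0.136, adjusted p = 0.00600), and day 7 was 0.51 below sham (SE 0.136, adjusted p = 0.0489). Group means of Kcnq1 were 7.19 ± 0.31 on day 7, 7.42 ± 0.13 on day 14 and 7.56 ± 0.01 on day 28 (SD, n = 2 each), beside 7.71 ± 0.15 in sham (SD, n = 3). The intervals of days 14 and 28 against sham both reached 0.

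Kcna5, the pore of the ultrarapid delayed rectifier, had a mean signal of 5.17, under the limit of 5.51 that a gene needed to be tested. Its arrays ran from 4.93 to 5.45 after iron and from 4.89 to 5.01 in sham. No fold change or test is given for it, because its signal was low.

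**Figure D1:**
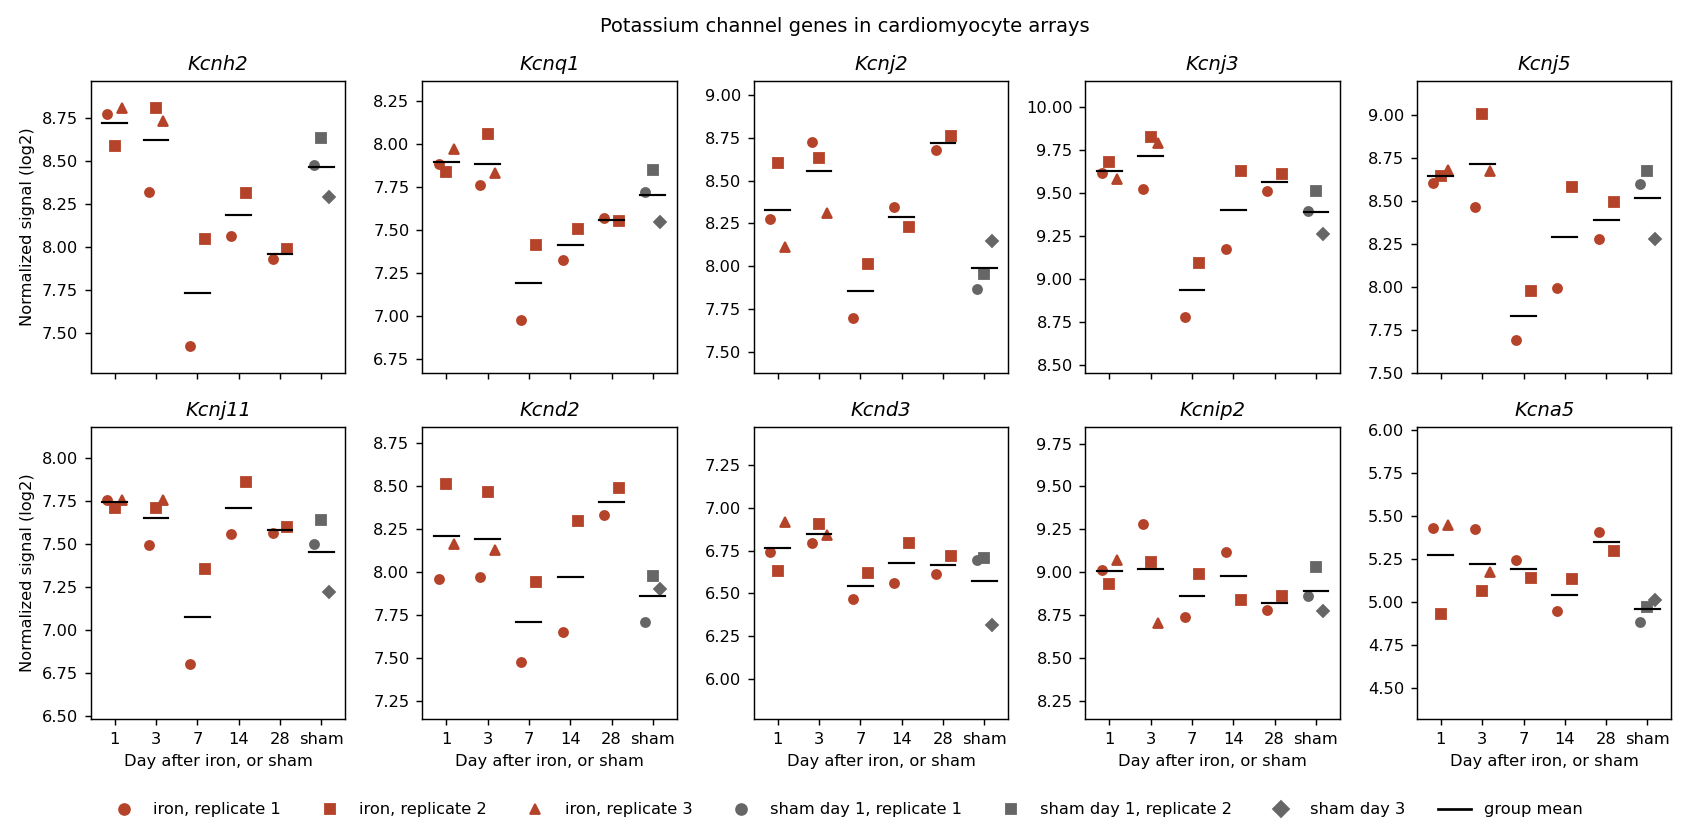
Normalized signal (log2) of the 10 genes in each of the 15 arrays, by day after iron and with sham on the right; symbols mark replicate numbers and bars the group means, and every panel spans the same number of log2 units. Kcnh2 and Kcnq1 fall to 7.42 and 6.98 in replicate 1 of iron day 7, Kcnj2 reaches 8.68 and 8.76 on day 28 against 7.87 to 8.15 in sham, and Kcnip2 shows little order by day.

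Among the inward rectifiers, Kcnj2 encodes the main pore of the resting inward rectifier current of the ventricle. Its arrays read 8.28, 8.60 and 8.11 on iron day 1, 8.72, 8.63 and 8.31 on iron day 3, 7.70 and 8.01 on iron day 7, 8.35 and 8.23 on iron day 14, 8.68 and 8.76 on iron day 28, and 7.87, 7.96 and 8.15 in sham. The arrays of days 3, 14 and 28 all lay above sham, as in 19.8%, 13.7% and 25.7% of all genes tested on those days. Day 7 overlapped sham. Kcnj2 rose by 0.56 on day 3 (SE 0.140, 1.48-fold, adjusted p = 0.0292) and by 0.72 on day 28 (SE 0.156, 1.65-fold, adjusted p = 0.0330), each against sham. Day 7, between these days, was 0.70 below day 3 (SE 0.156, adjusted p = 0.0113). Its difference from sham was -0.13, with a 95% interval of -0.47 to 0.20 (adjusted p = 0.645). Day 14 differed from sham by 0.30 (SE 0.156, adjusted p = 0.369). The late and early iron days as blocks differed by -0.15 with a 95% interval of -0.37 to 0.06, since days 7 and 28 stood on opposite sides.

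Kcnj3 and Kcnj5 encode the paired pore subunits of the acetylcholine-activated channel, best known from atrium and sinus node. Kcnj3 was 9.62, 9.68 and 9.58 on iron day 1, 9.52, 9.83 and 9.79 on iron day 3, 8.78 and 9.09 on iron day 7, 9.17 and 9.63 on iron day 14, 9.51 and 9.61 on iron day 28, and 9.39, 9.51 and 9.26 in sham. Kcnj5 was 8.61, 8.64 and 8.68 on iron day 1, 8.46, 9.01 and 8.68 on iron day 3, 7.69 and 7.98 on iron day 7, 8.00 and 8.58 on iron day 14, 8.28 and 8.49 on iron day 28, and 8.60, 8.68 and 8.28 in sham. For both genes the day 7 arrays lay below every sham array, as in 22.5% of all genes tested, and below every day 3 array, as in 29.4%. The 2 arrays of day 14 stood well apart. Kcnj3 was 0.78 lower on day 7 than on day 3 (SE 0.139, 0.583-fold, adjusted p = 0.00420) and 0.37 lower on the late than on the early days (SE 0.0879, adjusted p = 0.0109). For Kcnj5 these differences were -0.88 (SE 0.186, 0.542-fold, adjusted p = 0.00834) and -0.51 (SE 0.117, adjusted p = 0.00947). Against sham neither passed on day 7, at -0.45 (SE 0.139, adjusted p = 0.0757) for Kcnj3 and -0.69 (SE 0.186, adjusted p = 0.0519) for Kcnj5. The mean level of 7 atrial markers, 4 of them tested and 0 of these called in any of the comparisons (limma), ran from 6.68 to 6.98 on iron day 7, from 5.69 to 7.40 on iron day 3 and from 6.26 to 8.23 in sham.

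Kcnj11 encodes the pore of the ATP-sensitive channel, which opens when cellular energy falls. Its arrays read 7.76, 7.71 and 7.76 on iron day 1, 7.49, 7.71 and 7.76 on iron day 3, 6.80 and 7.35 on iron day 7, 7.56 and 7.86 on iron day 14, 7.56 and 7.60 on iron day 28, and 7.50, 7.64 and 7.22 in sham. Day 7 lay below day 3 without overlap, as in 29.4% of all genes tested, by 0.58 (SE 0.160, 0.671-fold, adjusted p = 0.0297). The arrays of days 14 and 28 stood between 7.56 and 7.86. Its late days differed from the early days by -0.24 (SE 0.101, adjusted p = 0.104).

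The transient outward genes showed smaller or more scattered differences. Kcnd2, a pore subunit of the fast transient outward current, had 7.48 and 7.94 on iron day 7, against 7.97, 8.47 and 8.13 on iron day 3. Its difference of -0.48 had a wide interval of -0.94 to -0.02 (adjusted p = 0.144). On day 28 it read 8.33 and 8.49, against 7.71, 7.98 and 7.90 in sham, a difference of 0.55 (SE 0.213, adjusted p = 0.187). Kcnd2 had the largest spread within groups of the 10 genes (pooled SD 0.269), beside a median of 0.137 over all genes tested.

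Kcnd3, the other transient outward pore gene, stood at 6.79, 6.90 and 6.84 on iron day 3, against 6.70, 6.71 and 6.32 in sham. It differed from sham by 0.27 (SE 0.116, adjusted p = 0.153), and the low sham value is that of the sham day 3 array. Against that single array alone the difference was 0.53. The adjusted p of 0.0453 takes the spread of that 1 array from the other groups. The sham day 3 array was the lowest of the 3 sham arrays in 7 of the 10 genes. Day 7 differed from day 3 by -0.30 (interval -0.58 to -0.02, adjusted p = 0.132). Kcnip2, the calcium-binding accessory subunit that the fast transient outward current needs, had group means of 9.01 ± 0.07 on day 1, 9.02 ± 0.29 on day 3, 8.86 ± 0.18 on day 7, 8.98 ± 0.20 on day 14 and 8.82 ± 0.06 on day 28, and 8.89 ± 0.13 in sham (SD, n = 2 or 3). The range of its group means, 0.194, was the narrowest of the 10 genes, and its pooled SD within groups was 0.179. Its difference between day 7 and day 3 had an interval of -0.47 to 0.17, so that a fall of the size seen in Kcnj11 lay outside it and a smaller one did not.

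**Figure D2:**
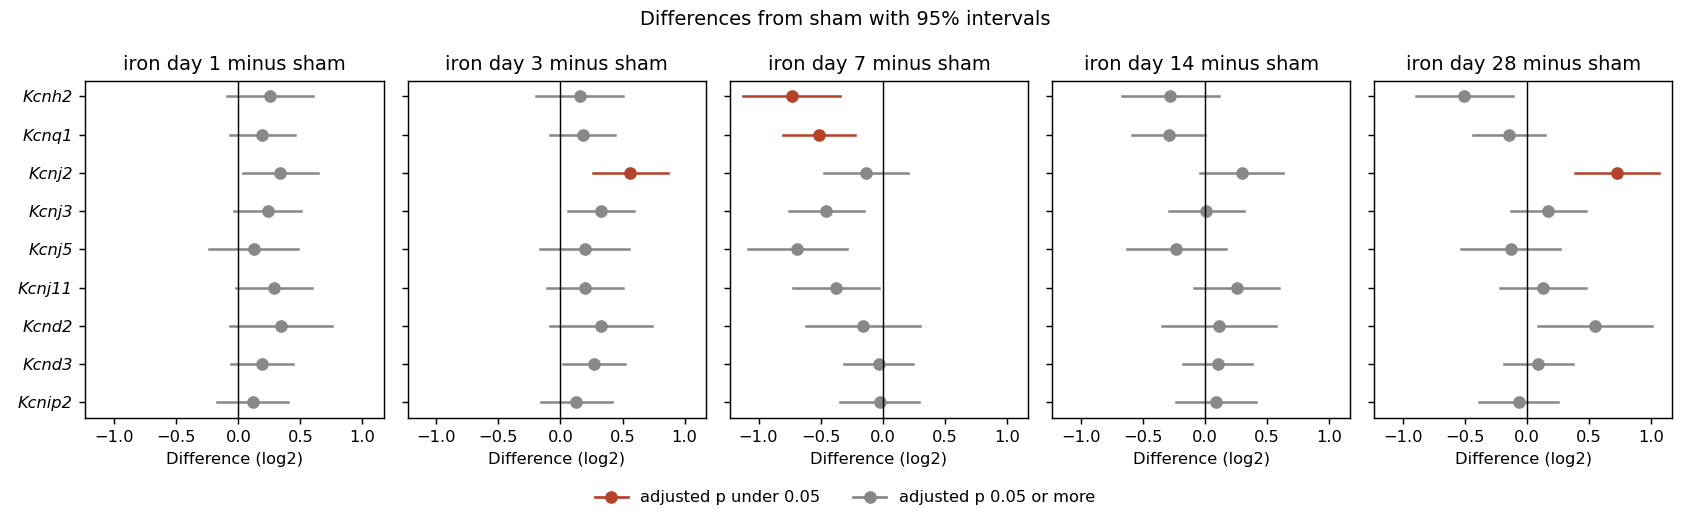
Log2 difference from sham of the 9 tested genes on each iron day, with 95% intervals from the limma fit; red marks an adjusted p under 0.05. The red points are Kcnj2 on days 3 and 28 (0.56 and 0.72) and Kcnh2 and Kcnq1 on day 7 (-0.73 and -0.51).

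Set against sham day by day, few of the 9 tested genes passed, and which ones did changed with time. These comparisons share the 3 sham arrays. On day 1 none passed by limma, against 0.0602% of all genes tested. An unadjusted p under 0.05 was found for 1 of the 9 (Kcnj2, 0.34, adjusted p = 0.391), beside 1100 of all 9969 genes. All 9 estimates were above 0, with a median of 0.24, beside 0.03 over all genes. Kcnj3 and Kcnj11 lay above sham without overlap, as did 7.59% of all genes. On day 3 Kcnj2 rose, 1 of 9 against 2.79% of all genes in that direction, and none fell, against 5.25%. Kcnj2, Kcnj3 and Kcnd3 lay above sham without overlap (19.8% of all genes). All 9 estimates were again above 0 (median 0.20, beside 0.04 over all genes), and Kcnj3 had 0.33 (adjusted p = 0.116). On day 7 Kcnh2 and Kcnq1 fell, 2 of 9 against 2.67% of all genes, and none rose, against 1.94%. All 9 estimates were below 0 (median -0.38, beside -0.03), and Kcnh2, Kcnq1, Kcnj3 and Kcnj5 lay below sham without overlap (22.5% of all genes). On day 14 none passed by limma, against 0.592% of all genes called higher and 0.241% called lower. None had an unadjusted p under 0.05, beside 1536 of all 9969 genes. Kcnj2 lay above sham without overlap (13.7% of all genes) and Kcnq1 below it (17% of all genes). On day 28 Kcnj2 rose, 1 of 9 against 1.41% of all genes, and none fell, against 0.582%. The median over the 9 was 0.09, beside 0.02. Kcnj2, Kcnj3 and Kcnd2 lay above sham without overlap (25.7% of all genes) and Kcnh2 below it (19.4%). With all iron days together none passed by limma, against 1.13% of all genes. The smallest p there was that of Kcnj2 (0.36, adjusted p = 0.150). It was the 1 gene of the 9 with an unadjusted p under 0.05, beside 1590 of all 9969 genes.

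Each of these 4 calls against sham was close to the threshold and was lost without certain single arrays. Kcnh2 on day 7 stood at -0.42 (adjusted p = 0.272) without replicate 1 of iron day 7 and had adjusted p = 0.159 when only the arrays compared were used. Its adjusted p was 0.0539 to 0.104 when replicate 3 of iron day 3, either array of iron day 28, or either array of sham day 1 was left out, with the difference at -0.73 to -0.65. Kcnq1 on day 7 was -0.29 (adjusted p = 0.314) without replicate 1 of iron day 7. Its call held in 4 of the 15 fits that left out 1 array, those without replicate 2 of iron day 7, either array of iron day 14 or the sham day 3 array. Kcnj2 on day 3 had adjusted p from 0.0609 to 0.106 when replicate 1 or 2 of iron day 3 or either sham day 1 array was left out, with the difference at 0.48 to 0.54. It stood at 0.41 (adjusted p = 0.206) against the sham array of the same day alone, again with the spread taken from the other groups. Kcnj2 on day 28 had adjusted p from 0.103 to 0.320 when either day 28 array or either sham day 1 array was left out, with the difference at 0.66 to 0.76. With each array centred on its median, Kcnj2 missed the threshold on both days (0.49 with adjusted p = 0.0527 on day 3, and 0.61 with adjusted p = 0.0648 on day 28), while Kcnj3 (-0.53, adjusted p = 0.0282) and Kcnj5 (-0.77, adjusted p = 0.0205) passed on day 7. Directions were kept in all of these.

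Between iron days the difference was broader. The comparisons of this paragraph do not use the sham level, and no sham of day 7 stood beside them, so time and exposure cannot be told apart here either. On day 7, 6 of the 9 tested genes were lower than on day 3, Kcnh2, Kcnj5, Kcnj3, Kcnj2, Kcnq1 and Kcnj11, against 8.07% of all genes called lower, and none was higher, against 6.75%. The median over the 9 was -0.69, beside -0.06 over all genes tested. In 8 of the 9 the arrays of the 2 days did not overlap, which held for 29.4% of all genes in that direction. Replicate 1 of iron day 7 read lower than replicate 2 in 9 of the 10 genes, Kcna5 being the exception, and by 0.62 in Kcnh2. Without replicate 1 of iron day 7, 0 of the 9 passed by limma. The differences were then -0.30 in Kcnj11 to -0.74 in Kcnj5 among the 6, with adjusted p from 0.0845 to 0.400. Kcnj11 also missed the threshold without replicate 2 or replicate 3 of iron day 3 (adjusted p = 0.0893 and 0.0807).

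In late iron days set against early ones, Kcnh2, Kcnj5, Kcnq1 and Kcnj3 fell, 4 of 9 against 11.7% of all genes called lower, and none rose, against 10.3%. The median over the 9 was -0.24, beside -0.03. Each of the 4 passed in all 15 fits that left out 1 array and under all 9 other settings tried that kept the days as they were, with adjusted p up to 0.0379. Without day 7, so that days 14 and 28 alone stood against days 1 and 3, a setting chosen after seeing the data, Kcnh2 (-0.60, adjusted p = 0.0140) and Kcnq1 (-0.40, adjusted p = 0.0219) still passed. Kcnj5 (-0.34, adjusted p = 0.111) and Kcnj3 (-0.19, adjusted p = 0.229) then did not. In the F test among the 5 iron days, Kcnh2, Kcnq1, Kcnj3, Kcnj2 and Kcnj5 passed (adjusted p from 0.00935 to 0.0280), 5 of 9 against 19.2% of all genes. Leaving out replicate 1 of iron day 7 made that count 2, and leaving out either array of iron day 28 made it 3.

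**Figure D3:**
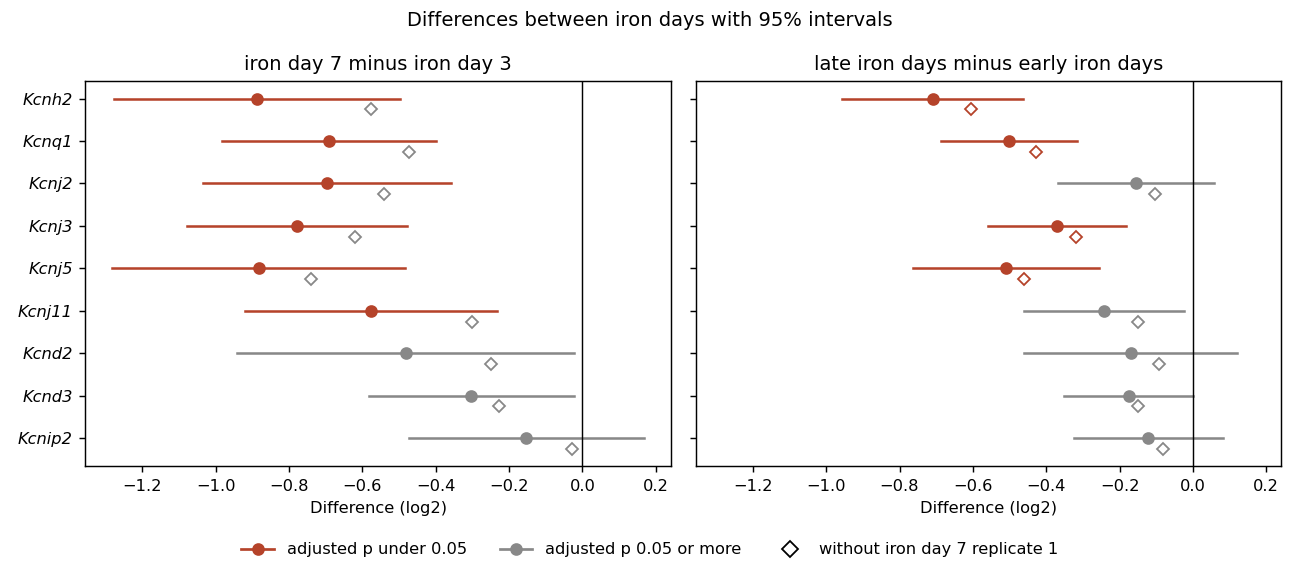
Log2 differences between iron days for the 9 tested genes (left, day 7 minus day 3; right, days 7, 14 and 28 minus days 1 and 3), with 95% intervals; open diamonds give the value without replicate 1 of iron day 7, and red marks an adjusted p under 0.05. All diamonds on the left are grey, whereas Kcnh2, Kcnq1, Kcnj3 and Kcnj5 stay red on the right, from -0.61 in Kcnh2 to -0.32 in Kcnj3.

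Other gene groups differed along the same comparisons. The preparation held over 90% calcium-tolerant cardiomyocytes by the labels, and the mean level of 11 cardiomyocyte markers ran from 11.92 to 12.00 on iron day 7, from 12.08 to 12.13 on iron day 3 and from 12.05 to 12.11 in sham. On day 7, 2 of these 11 were lower than on day 3 (Ryr2, -0.34, and Mybpc3, -0.31), against 8.07% of all genes. Of the macrophage and monocyte markers 9 of 10 tested were higher on day 7 than on day 3 (median 2.03), against 6.75% of all genes. The mean level over 14 such genes ran from 7.47 to 7.90 on day 7, from 5.90 to 6.17 on day 3 and from 6.97 to 7.24 in sham. Of the fibroblast markers 10 of 11 were higher (median 1.03), against the same 6.75%. Mean levels over 12 such genes ran from 7.51 to 7.93 on day 7, from 6.56 to 6.82 on day 3 and from 8.07 to 8.14 in sham. Between the late and the early days 9 of 11 fibroblast, 8 of 10 macrophage and monocyte, and 4 of 4 lymphocyte markers were higher, against 10.3% of all genes. In the same comparison 5 of 11 cardiomyocyte markers were lower and 0 higher, against 11.7% of all genes lower. They were Mybpc3 (-0.24), Ttn (-0.22), Ryr2 (-0.20), Tnnc1 (-0.15) and Tnnt2 (-0.09), and the median over the 11 was -0.09. Tnnt2, the smallest of the 5, was named after its values were seen. On day 3, where Kcnj2 rose against sham, 11 of 11 fibroblast, 8 of 10 macrophage and 9 of 12 endothelial markers were lower than in sham. Of all genes, 5.25% were lower there. On day 28, where Kcnj2 rose again, 1 of 11 fibroblast markers was lower, against 0.582% of all genes. There 2 of 4 lymphocyte markers were higher, against 1.41% of all genes. Lymphocyte levels over 9 genes ran from 7.32 to 7.48 on day 28 and from 4.78 to 6.71 in sham. The part of these cell types in the potassium channel differences was not tested.

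Clock genes were counted in the same comparisons. Against sham 0 of 16 tested passed by limma on day 1, against 0.0602% of all genes. On day 3, 1 was higher (Nfil3, 0.41) and 0 lower, against 2.79% and 5.25% of all genes. On day 7, 9 of the 16 were lower and 2 higher than in sham (median -0.59), against 2.67% and 1.94% of all genes. Relative to day 3, 10 were lower and 2 higher on day 7 (median -0.80), against 8.07% and 6.75% of all genes. Against sham 7 were lower and 2 higher on day 14, beside 0.241% and 0.592% of all genes. On day 28, 6 were lower and 2 higher than in sham, beside 0.582% and 1.41%. In the comparison of late with early days, where Kcnh2, Kcnq1, Kcnj3 and Kcnj5 fell, 11 of the 16 clock genes were lower and 3 higher (median -0.66). Of all genes, 11.7% were lower and 10.3% higher there. The time of day at which cells were taken is not given in the sources used here, and its part was not tested.

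The wider set of potassium channel subunits was described from a list of 39 symbols, 36 of them on the array and 15 tested. On day 3 against sham 2 rose and 1 fell, beside 2.79% of all genes higher and 5.25% lower. The pacemaker channel genes Hcn4 (0.58, SE 0.142, adjusted p = 0.0284) and Hcn2 (0.41, SE 0.118, adjusted p = 0.0497) were higher. Kcnj8, the ATP-sensitive pore subunit of vascular muscle and pericytes, fell by 1.14 (SE 0.311, adjusted p = 0.0410). On day 7 against sham Kcnn2, a calcium-activated channel gene, fell by 0.84 (SE 0.187, adjusted p = 0.0276), 1 of 15 beside 2.67% of all genes. On day 14 Hcn2 rose by 0.70 against sham (SE 0.132, adjusted p = 0.0228), 1 of 15 beside 0.592% of all genes. On days 1 and 28 none passed by limma. On day 7, 4 of the 15 were lower than on day 3 and 1 higher, beside 8.07% of all genes lower and 6.75% higher. Kcnn2 (-0.94), Hcn4 (-0.60) and Kcnj12 (-0.54), which encodes another inward rectifier, were lower, as was Abcc8 (-0.47), a sulfonylurea receptor subunit that partners Kcnj11 and was singled out after its values were seen. Kcnab1, a beta subunit, was higher (0.63). Late against early days gave 6 lower and 1 higher of 15, beside 11.7% of all genes lower and 10.3% higher. The median over the 15 was -0.19, beside -0.03 over all genes tested. The falls in Kcnn2 (-0.59, SE 0.118, adjusted p = 0.00494) and Kcnj12 (-0.41, SE 0.0858, adjusted p = 0.00604) were the largest of the 6.

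Genes of other currents were counted in the same way. Of 9 tested sodium and calcium channel, gap junction and pump genes, 2 fell on the late against the early days and 0 rose, beside 11.7% of all genes lower and 10.3% higher. These were the sodium-calcium exchanger Slc8a1 (-0.42, SE 0.0692, adjusted p = 0.00156) and the sodium pump subunit Atp1b1 (-0.29, SE 0.0642, adjusted p = 0.00740). Whether this share differs from that of the potassium channels was not tested. Of 11 tested genes listed as regulators of cardiac potassium channel genes 3 fell and 1 rose on the late against the early days. Beside them, 11.7% of all genes were lower and 10.3% higher. Irx5, a homeobox repressor of Kcnd2 in mouse ventricle, fell by 0.53 (SE 0.0814, adjusted p = 0.00109) and Irx4, a related ventricular factor, by 0.47 (SE 0.0989, adjusted p = 0.00630). The third was Fgf13, which fell by 0.39 (SE 0.102, adjusted p = 0.0171). It was on the list although it is a channel-binding modulator of the sodium current. Nfatc3, a calcineurin-dependent factor, was 0.49 higher (SE 0.0981, adjusted p = 0.00456).

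All genes were read on the same 15 arrays. Across these the 36 pairs among the 9 tested genes had Pearson correlations from -0.02 to 0.94 (median 0.64), given as a description. No background over pairs of other genes was computed. Kcnh2 and Kcnq1 were the most alike pair (r = 0.94), followed by Kcnq1 with Kcnj5 (r = 0.93) and Kcnj3 with Kcnj5 (r = 0.93). Kcnj2 was most like Kcnd2 (r = 0.73) and least like Kcnh2 (r = 0.15), and Kcnip2 reached at most 0.38, with Kcnd3.

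**Figure D4:**
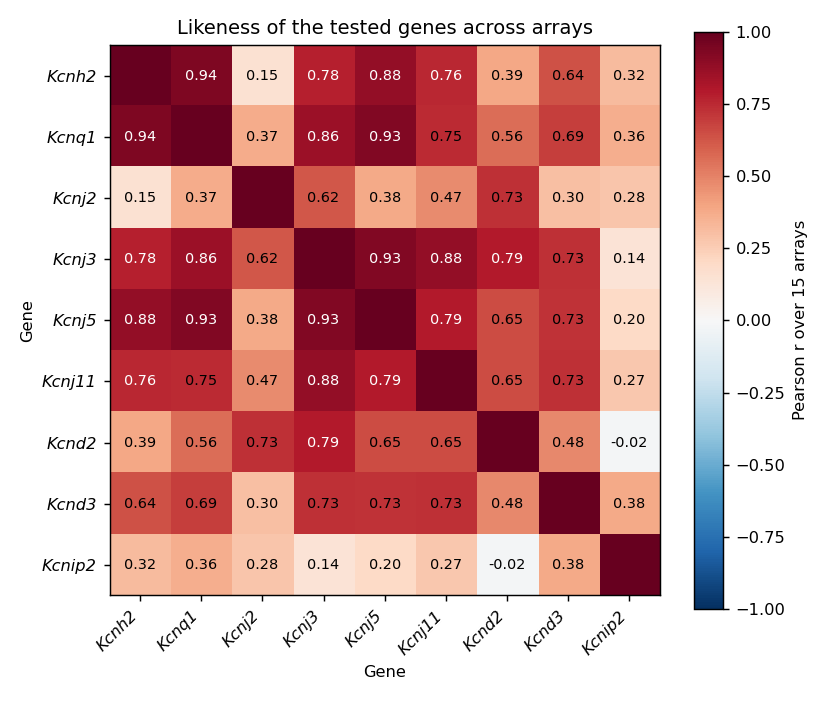
Pearson correlation over 15 arrays for each pair of the 9 tested genes, on a colour scale from -1 to 1. Kcnh2, Kcnq1, Kcnj3, Kcnj5 and Kcnj11 form a dark block from 0.75 to 0.94, and the row of Kcnip2 is pale, from -0.02 to 0.38.

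Among all genes tested, those whose pattern over the 15 arrays was most like a called gene were found by the same measure. For Kcnh2 they were Pla2g4e (r = 0.97), Tcap (r = 0.96) and Ank3 (r = 0.96), and for Kcnq1 they were Nfyc (r = 0.96), Msi2 (r = 0.95) and Tom1 (r = 0.95). Kcnj5 was most like Carns1 (r = 0.96), Rpap1 (r = 0.95) and Agtr1a (r = 0.94). Kcnj3 was most like Slc2a4 (r = 0.94) and Agtr1a (r = 0.93), and its partner Kcnj5 came next (r = 0.93). For Kcnj11 they were Dolk (r = 0.93), Ppt2 (r = 0.92) and Abcb8 (r = 0.91). For Kcnj2 the closest, Gpr157 (r = 0.86), Abca12 (r = 0.84) and Retreg1 (r = 0.84), were less alike.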

How the data were processed

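Values were the authors' normalized log2 signals, as deposited, of 34760 probe sets on 15 arrays; they ran from 0.234 to 13.01 with 0 missing. MAS5 is the tool listed in the submitters' processing notes, with no version or role. Total RNA was extracted with TRIzol and labelled with biotin per the labels' protocols. Probe sets with 1 gene symbol (21640; 1321 had several and 11799 none) gave 19937 genes, each by its probe set of highest mean. Each of the 10 genes had 1 probe set. Genes with a mean signal at or above the 50th percentile (5.51) were tested, 9969 in all.

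limma 3.58.1 in R 4.3.3 fitted 6 group means (5 iron days, and sham of days 1 and 3 together), with an intensity trend and 9 residual degrees of freedom, and p-values were adjusted over all genes tested. The fit was tested on simulated data. All 10 genes are described. The members and lists were chosen with earlier results of these data known. Other lists name the genes that passed, at most 4 per list and comparison by size. The 3 genes of highest correlation are named for each member that passed. Alternatives were quantile normalization, median centring, no or a stricter filter, no trend, array weights, every probe set kept, the replicate number as a block, fits of only the arrays compared, day-matched sham, and leaving out each array. Replicate numbers were not used to pair arrays. Residuals correlated at -0.39 to 0.57 over 31 pairs of the same number (median 0.06). Over 50 other pairs they correlated at -0.57 to 0.49 (median -0.03). In groups of 2 arrays the residuals of a gene are exact opposites, so the 2 ranges partly mirror each other. They cannot settle whether the numbers pair arrays. Tables and figures used pandas 2.3.3, numpy 2.4.6 and matplotlib 3.10.9 in Python 3.11.15.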

Additional observations from a re-analysis of the deposited data

Results flagged for a closer look

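The difference between iron days was tested directly, and 6 of the 9 tested genes differed between day 7 and day 3. Relative to day 3, day 7 stood at -0.89 in Kcnh2, -0.69 in Kcnq1, -0.70 in Kcnj2, -0.78 in Kcnj3, -0.88 in Kcnj5 and -0.58 in Kcnj11. None of the 6 passed by limma without replicate 1 of iron day 7, and their direction was kept. The late days differed from the early days in 4 genes, at -0.71 in Kcnh2, -0.50 in Kcnq1, -0.37 in Kcnj3 and -0.51 in Kcnj5. No group of the labels had 4 or more arrays, so no array was tested as an outlier.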

How the results depend on the processing

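No single-gene value with an unadjusted p under 0.05, and none of day 7 against day 3, changed sign under any alternative run. The number of genes that passed on day 7 against sham was 2, and it was 1 with quantile normalization, no filter or array weights, 4 with median centring, and 0 with only the arrays compared. On day 3 it was 1, and 0 with median centring and 2 with array weights. On day 28 it was 1, and 0 with median centring and 3 with array weights. The replicate block, which left out the sham day 3 array, gave 4 on day 7 and, with Kcnd2 (0.57, adjusted p = 0.0344), 2 on day 28; Kcnd2 also passed there for day 7 against day 3 (-0.51, adjusted p = 0.0203). Late against early days the count of 4 became 2 with days 14 and 28 alone. Leaving out each array gave 0 to 1 on days 3 and 28, 0 to 4 on day 7, 0 to 6 for day 7 against day 3, 4 to 5 for late against early days, and 2 to 6 in the F test. The cause was not tested. Day 1, day 14 and all iron days stayed at 0 in limma under every alternative run. In the main fit 1, 0 and 1 of these genes had an unadjusted p under 0.05. Over all 9969 genes tested these counts were 1100, 1536 and 1590. Counts over all genes moved too: on day 7 from 459 to 1111 with median centring, 243 with array weights, 45 with only the arrays compared and 46 without replicate 1 of iron day 7, on day 3 from 801 to 1691 with array weights and 157 with the block, on day 28 from 199 to 2448 and 395, and for day 7 against day 3 from 1477 to 143 without replicate 1 of iron day 7. Median centring shifted the median of all genes by -0.11 on day 28 and by less elsewhere. Its share of calls that were higher was 11.8% on day 3 (34.7% as deposited), 16.8% on day 7 (42%), 47.6% on day 14 (71.1%), 34.2% on day 28 (70.9%), 26.1% over all iron days (59.3%) and 36.4% for late against early days (46.8%). On day 28 quantile normalization gave 58.9%. Without an array of a group of 2, the lone array is assumed to vary like the other groups.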
